A study of Mus musculus with 10 samples.

Results

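The 37 genes described here are interferon-stimulated genes with antiviral roles. They were chosen by name from knowledge of the interferon response, and each was represented by the probe set that was brightest on average over all arrays. Of 18193 genes with a probe set assigned to them alone, 34 were members. Isg15 and Ifi205 were measured only by probe sets that the annotation also assigns to other genes, and Ifi44 was not analysed here.

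The samples were cultures of splenic B cells on 1-colour Affymetrix arrays, with 5 Irf4-/- and 5 Irf4+/+ samples. Mice were littermates aged 12 weeks on a C57BL/6 background, and the kind of disruption of the Irf4 allele is not stated in the labels. Cells other than B cells had been taken out magnetically, and both genotypes were then cultured for 3 days with an antibody to mouse CD40 (1 mg/ml per the labels) and with IL-4 at 20 ng/ml. No label ties the 5 samples of a genotype to separate mice or cultures, so p-values measure only how these samples vary, and that variation may be technical. The labels name no added interferon and no virus.

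Type I interferons bind the receptor IFNAR, and type II interferon (interferon gamma) binds IFNGR. Both receptors signal through JAK kinases and STAT proteins. A complex that contains IRF9 binds the interferon-stimulated response element, a DNA sequence in the promoters of many antiviral genes. Their products sense viral nucleic acid, degrade or edit viral RNA, block entry or release of virus, or attach the ubiquitin-like protein ISG15 to other proteins. IRF4 belongs to the same family of DNA-binding proteins as IRF9, is induced in activated B cells, and binds DNA alone at such elements or together with partners such as PU.1 at composite elements.

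Promoter sequences are shown for 6 members and for Bst2. The 6 have the largest called changes among members whose promoter was available and holds the core of the response element. Bst2 holds the core and was not called. Bst2 was added after its values had been seen. Each run covers 250 bases before and 50 bases after the annotated start, is written 5′ to 3′ in the direction of the gene, and comes from RefSeq (build GRCm38.p6). Capitals mark every match to the core, which is GAAA followed after any 2 bases by a second GAAA. A match on the other strand reads TTTC, any 2 bases, TTTC.
Ifih1 (chr2:62646206-62646505, - strand): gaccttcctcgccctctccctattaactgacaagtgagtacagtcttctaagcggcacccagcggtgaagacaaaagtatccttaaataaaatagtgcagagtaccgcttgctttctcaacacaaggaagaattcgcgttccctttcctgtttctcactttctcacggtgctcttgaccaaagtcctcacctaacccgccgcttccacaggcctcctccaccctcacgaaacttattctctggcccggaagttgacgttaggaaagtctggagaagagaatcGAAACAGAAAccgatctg
Ddx60 (chr8:61927837-61928136, + strand): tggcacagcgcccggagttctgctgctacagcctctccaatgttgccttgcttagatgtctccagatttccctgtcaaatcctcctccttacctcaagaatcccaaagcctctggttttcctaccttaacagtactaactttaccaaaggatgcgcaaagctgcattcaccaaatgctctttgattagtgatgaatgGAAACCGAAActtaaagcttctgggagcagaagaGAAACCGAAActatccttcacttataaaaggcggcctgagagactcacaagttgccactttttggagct
Ifit1 (chr19:34640639-34640938, + strand): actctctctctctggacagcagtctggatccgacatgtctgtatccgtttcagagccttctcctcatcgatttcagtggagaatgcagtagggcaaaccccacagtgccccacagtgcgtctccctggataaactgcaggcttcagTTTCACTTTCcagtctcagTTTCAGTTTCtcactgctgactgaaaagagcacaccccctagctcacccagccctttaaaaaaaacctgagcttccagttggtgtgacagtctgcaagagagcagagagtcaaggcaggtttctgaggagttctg
Ifitm3 (chr7:141010695-141010994, - strand): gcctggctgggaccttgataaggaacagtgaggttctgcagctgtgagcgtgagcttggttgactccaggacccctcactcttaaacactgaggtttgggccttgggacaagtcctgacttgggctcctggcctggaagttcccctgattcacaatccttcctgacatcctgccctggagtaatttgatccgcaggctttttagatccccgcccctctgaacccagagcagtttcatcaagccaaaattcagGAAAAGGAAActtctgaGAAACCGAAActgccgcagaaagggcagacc
Ifitm2 (chr7:140955912-140956211, - strand): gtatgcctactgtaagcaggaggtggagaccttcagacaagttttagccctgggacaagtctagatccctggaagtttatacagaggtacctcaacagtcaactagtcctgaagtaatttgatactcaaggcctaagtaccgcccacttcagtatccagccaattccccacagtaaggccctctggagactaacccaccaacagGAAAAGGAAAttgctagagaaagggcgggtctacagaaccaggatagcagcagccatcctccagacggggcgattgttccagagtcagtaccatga
Ddx58 (chr4:40239776-40240075, - strand): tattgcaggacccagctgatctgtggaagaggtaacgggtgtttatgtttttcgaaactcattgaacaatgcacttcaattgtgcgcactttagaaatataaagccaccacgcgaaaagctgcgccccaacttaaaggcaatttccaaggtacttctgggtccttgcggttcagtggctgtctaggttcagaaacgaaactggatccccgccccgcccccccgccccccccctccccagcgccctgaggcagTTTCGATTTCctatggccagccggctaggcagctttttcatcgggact
Bst2 (chr8:71537423-71537722, - strand): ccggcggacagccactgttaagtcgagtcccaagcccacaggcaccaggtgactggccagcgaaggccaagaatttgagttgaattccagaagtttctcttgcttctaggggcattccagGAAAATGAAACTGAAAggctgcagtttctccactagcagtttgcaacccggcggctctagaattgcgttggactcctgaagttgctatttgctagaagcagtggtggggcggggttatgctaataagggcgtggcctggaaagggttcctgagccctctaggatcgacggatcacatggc

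In Ddx60 the core began 53 and 19 bases before the start (positions -53 and -19), and in Ifit1 at -104 and -85 on the other strand. In Ifih1 it began at base 33 of the transcript, in Ifitm3 at bases 3 and 20, in Ddx58 at base 3 on the other strand and in Ifitm2 at -46. The 2 matches of Bst2, at -130 and -124, overlap each other. Of the 37 members 28 had a promoter in the table, and 14 of these (50%) held the core, against 3.99% of all 27025 genes in the table. The other 9 (Rtp4, Zbp1, Usp18, Dhx58, Ifi27l2a, Mx1, Mx2, Tor3a and Ifi204) had none there, so their promoters were not examined. A composite element for an ETS factor such as PU.1 with an IRF, spelled GGAA followed after any 2 bases by GAAA, was found for 4 of 28 (14.3%), against 3.16% of all genes. TTCNNNGAA, a STAT element, was found for 6 of 28 (21.4%), against 9.55% of all genes. Both strands were searched, a gene with several starts counted once if any promoter held the motif, and in 2 member promoters a match to the core overlapped another motif.

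Irf4 transcript, measured by its brighter probe set, had signals of 2821, 2989, 2766, 2638 and 2748 in Irf4-/- samples, against 3899, 3745, 3758, 3978 and 3426 in Irf4+/+ samples. The groups did not overlap (log2 fold change -0.43, SE 0.0536, adjusted p = 5.03e-06). The second Irf4 probe set ranged from 260.3 to 481.3 in Irf4-/- and from 309.6 to 529.1 in Irf4+/+ samples, with overlap, and its log2 fold change of -0.40 missed the threshold (adjusted p = 0.0524 over all probe sets). The labels do not place either probe set against the disrupted stretch of Irf4, so these signals do not check the genotype. Arrays of 1 genotype correlated at 0.978 to 0.985 (Pearson's r across 12094 genes, which are not independent replicates), and arrays of different genotypes at 0.937 to 0.944. The 3 control probe sets for 18S ribosomal RNA were 3.00-fold to 4.31-fold higher in Irf4-/- samples without overlap, and their part in the members' results was not tested.

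Most of the measurable members were higher in Irf4-/- B cells. Of the 34 members with their own probe set, 31 had a mean signal over 26.1 units (the 40th percentile of all values) and were tested, and Ifit3, Mx2 and Ifi204 were dim, which here means a mean over all 10 arrays under that limit. Of these 31, 28 rose, 0 fell and 3 were not called, at an adjusted p under 0.05 over all 12094 genes tested. The background is large: 23.6% of all genes tested were called higher and 24.2% lower. At least 2-fold rises were counted for 22 members, against 5.44% of all genes, and at least 4-fold rises for 9, against 1.46% of all genes. The arrays of the 2 genotypes were apart for 27 members, all with Irf4-/- above, against 17.5% of all genes. The median log2 fold change over the tested members was 1.56, and over all genes tested it was 0.004. Rtp4, Ddx60, Usp18 and Ifit1 had Irf4+/+ means under 26.1, so they passed through their Irf4-/- signal and had to differ. All 4 are among the 22 and among the 27 without overlap, and 3 of them (Rtp4, Ddx60 and Usp18) are among the 9. Of the 27 members whose Irf4+/+ mean lay over 26.1, 24 rose. The members were chosen with earlier results of these data known, so these counts describe the list and are not independent evidence of its direction. All tested markers of natural killer cells, and some of macrophages and granulocytes, were also higher in Irf4-/- samples, with the values given after the pathway genes. In bulk RNA, fewer cells of a type and less RNA per cell cannot be told apart.

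**Figure D1:**
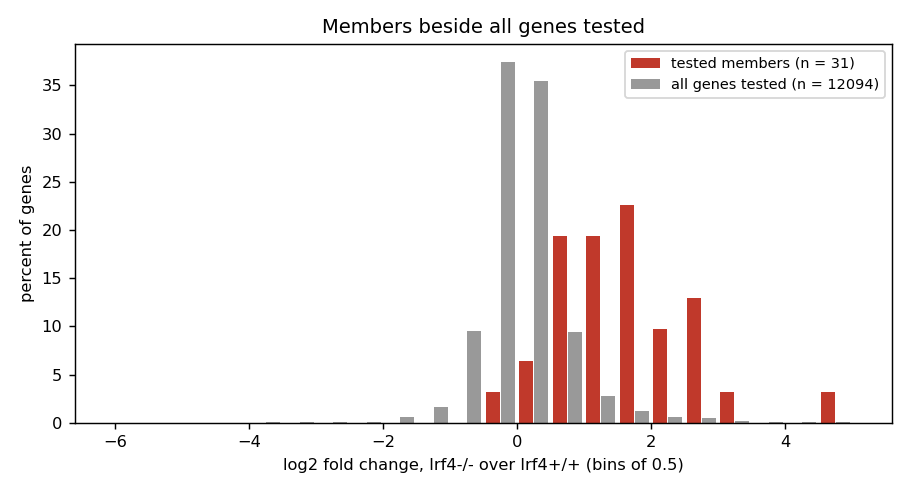
Percent of genes in bins of 0.5 log2 fold change (Irf4-/- over Irf4+/+), for the 31 tested members (red) and all 12094 genes tested (grey). The members' median of 1.56 lies in the right tail of the grey bars, which centre near 0.

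Nucleic acid sensors and editors rose in all 6 cases measured. Ddx60 was tested only through its Irf4-/- signal and had to differ, and the other 5 rose. Ifih1 (MDA5), a cytosolic sensor of long double-stranded RNA, had signals of 540.1, 499.5, 474.1, 516.3 and 527.8 in Irf4-/- samples, against 80.5, 65.7, 110.6, 88.9 and 57.2 in Irf4+/+ samples. Every Irf4-/- array lay far above every Irf4+/+ array, and the change was 6.00-fold (log2 2.58, SE 0.133, adjusted p = 1.48e-10). Zbp1, a sensor of Z-form nucleic acid that can trigger cell death, had 570.0, 477.7, 507.9, 435.2 and 627.5 in Irf4-/- samples and 72.3, 105.3, 70.6, 68.8 and 93.7 in Irf4+/+ samples. Its change was 5.93-fold (SE of log2 0.128, adjusted p = 9.82e-11), and its dimmer probe set changed 5.79-fold. Ddx60, a helicase linked to RNA sensing, had 86.0, 96.4, 106.7, 135.7 and 77.1 in Irf4-/- samples and 12.2, 18, 16.5, 3.6 and 9.1 in Irf4+/+ samples. All Irf4+/+ values of Ddx60 are dim, so its 5.6-fold change depends on the pseudocount (adjusted p = 6.40e-07). The other Ddx60 probe set was dim in both genotypes.

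The helicase Ddx58 (RIG-I), which senses RNA with free triphosphate ends, averaged 784.5 ± 51.0 in Irf4-/- samples, against 260.5 ± 16.5 in Irf4+/+ samples, a 2.95-fold rise (SD and n = 5 here and after each ±). All 3 of its probe sets rose, by 2.60-fold to 3.77-fold. Dhx58 (LGP2), which regulates the other RNA helicases, averaged 386.7 ± 31.1 in Irf4-/- and 123.3 ± 9.87 in Irf4+/+ samples, a 3.01-fold rise. A log2 fold change of 0.44 from the dimmest of its 3 probe sets was not called (adjusted p = 0.158 over all probe sets). Adar, which edits adenosine to inosine in double-stranded RNA, showed the smallest rise of these 6, 1.53-fold, from means of 1432 ± 80.2 in Irf4-/- and 931.0 ± 48.4 in Irf4+/+ samples. Adjusted p was at most 2.33e-07 for Ddx58, Dhx58 and Adar.

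**Figure D2:**
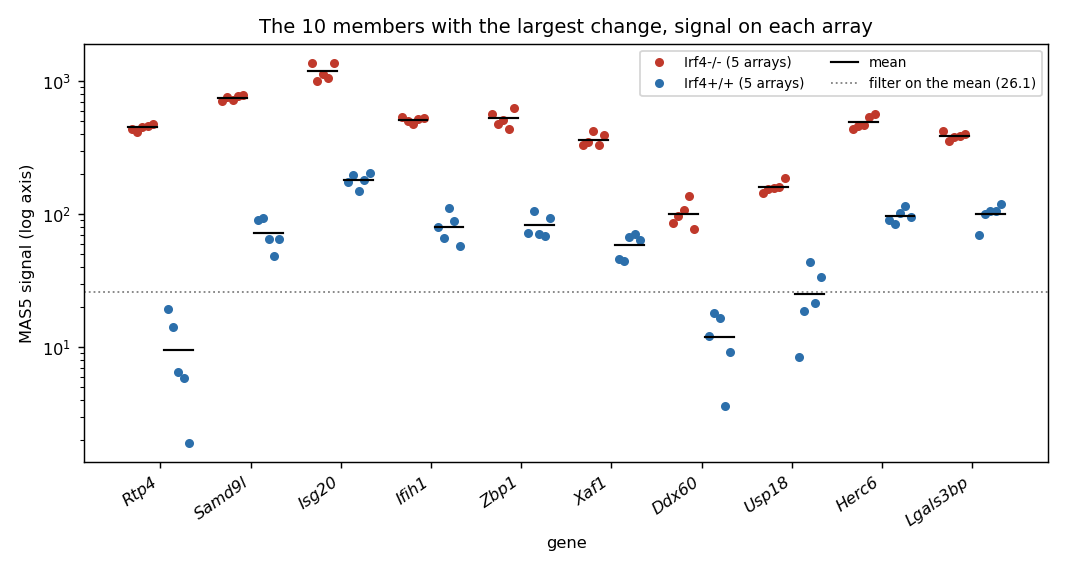
MAS5 signal (log axis) on each array for the 10 members with the largest called change, with Irf4-/- arrays in red left of Irf4+/+ arrays in blue, bars at the mean and a dotted line at the filter of 26.1. No gene shows overlap between genotypes, and the Irf4+/+ means of Rtp4, Ddx60 and Usp18 lie under the dotted line.

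Among direct antiviral effectors all 10 tested genes rose, by 2.16-fold to 27.9-fold. Rtp4, at the top of this range, and Ifit1 were tested only through their Irf4-/- signal and had to differ, and the other 8 rose. Rtp4, an interferon-induced member of the receptor transporter family, had 436.2, 415.8, 455.1, 461.1 and 475.5 in Irf4-/- samples, against 19.4, 14.2, 6.5, 5.8 and 1.9 in Irf4+/+ samples. The Irf4-/- arrays were close together and the Irf4+/+ arrays were all dim (27.9-fold, log2 4.80, SE 0.224, adjusted p = 4.54e-11). With pseudocounts of 1, 16 and 32 in place of 7.9 the log2 fold change of Rtp4 was 5.71, 4.23 and 3.55. Its second probe set was dim in both genotypes.

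Samd9l, which restricts poxviruses and slows translation, had 709.1, 756.2, 718.4, 766.5 and 784.8 in Irf4-/- samples, against 90.2, 93.6, 65.2, 48.6 and 64.9 in Irf4+/+ samples. It had the largest change among members measured above 26.1 in both genotypes (9.60-fold, SE of log2 0.134, adjusted p = 9.58e-12). Isg20, an RNA exonuclease, had 1368, 1008, 1135, 1060 and 1362 in Irf4-/- samples, against 175.1, 195.3, 150.2, 180.5 and 203.7 in Irf4+/+ samples (6.31-fold, adjusted p = 4.02e-12). Irf4-/- replicates 1 and 5 were the highest for Isg20, yet the other three also lay far above every Irf4+/+ array. Xaf1, a pro-apoptotic protein that binds the inhibitor XIAP, had 327.9, 348.0, 419.4, 331.1 and 389.6 in Irf4-/- samples, against 45.9, 44.2, 67.2, 71.0 and 63.4 in Irf4+/+ samples. Its change was 5.66-fold (adjusted p = 2.21e-10), and its other probe set changed 8.93-fold. Ifi27l2a, a small interferon-induced membrane protein, averaged 2742 ± 518 in Irf4-/- and 908.0 ± 67.7 in Irf4+/+ samples, a 2.97-fold rise (adjusted p = 2.63e-09).

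Of the IFIT and MX genes and Rsad2, 4 of 6 were tested, and these 4 rose. Of these 4, Ifit1 was tested only through its Irf4-/- signal. Ifit1, which binds viral RNA caps, ranged from 71.3 to 139.3 in Irf4-/- samples and from 15.2 to 32.8 in Irf4+/+ samples, a 3.40-fold rise (adjusted p = 5.66e-06). Ifit2, a relative that binds AU-rich RNA, ranged from 69.8 to 107.8 in Irf4-/- and from 27.0 to 58.8 in Irf4+/+ samples (2.18-fold, adjusted p = 0.000237). Ifit3, their partner, ranged from 10.8 to 39.3 in Irf4-/- and from 4.0 to 35.8 in Irf4+/+ samples. Its mean was 27.3 in Irf4-/- and 17 in Irf4+/+ samples, and it was not tested because its mean over both genotypes lay under 26.1. These 3 genes lie in 1 cluster on chromosome 19.

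Mx1, a dynamin-like GTPase, ranged from 61.5 to 87.7 in Irf4-/- and from 14.2 to 37.3 in Irf4+/+ samples (2.36-fold, adjusted p = 0.00018), and Mx2 stayed between 2.1 and 15.2 on all arrays. The RefSeq table of the C57BL/6J genome classes both Mx genes as transcribed pseudogenes. Rsad2 (viperin), which makes a chain-terminating nucleotide, ranged from 55.3 to 74.4 in Irf4-/- and from 9.3 to 44.1 in Irf4+/+ samples (2.16-fold, adjusted p = 0.00415). Its other probe sets were dim in both genotypes. With the mean of all probe sets of a gene its log2 fold change was 0.51 (adjusted p = 0.0315 in that limma fit). Cmpk2, a nucleotide kinase whose gene is next to Rsad2 on chromosome 12, ranged from 54.6 to 112.7 in Irf4-/- and from 14.7 to 40.3 in Irf4+/+ samples (2.73-fold, adjusted p = 0.000172). The signals of different genes cannot be ranked, since probe sets differ in their response, so a dim signal is described only against the filter of 26.1. Folds of members with dim Irf4+/+ signals depend on the pseudocount: with 1, 16 and 32 units the log2 fold change was 3.11, 2.07 and 1.59 for Ddx60, 2.80, 2.16 and 1.78 for Usp18, and 2.03, 1.54 and 1.24 for Ifit1.

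Among membrane restriction factors 2 of 3 rose. Ifitm2 and Ifitm3, which lie in 1 cluster on chromosome 7, encode proteins that block fusion of viruses in endosomes, and both rose. Ifitm2 averaged 316.8 ± 39.2 in Irf4-/- and 100.4 ± 20.4 in Irf4+/+ samples (3.02-fold, adjusted p = 3.21e-08), and Ifitm3 204.5 ± 16.7 in Irf4-/- and 57.9 ± 15 in Irf4+/+ samples (3.29-fold, adjusted p = 1.00e-07). Bst2 (tetherin), which holds budding virus at the cell surface, had 172.6, 169.2, 194.6, 191.1 and 204.6 in Irf4-/- samples, against 194.8, 130.5, 197.8, 177.6 and 151.3 in Irf4+/+ samples. The genotypes overlapped, and the log2 fold change of 0.14 was not called (adjusted p = 0.37, 95% confidence interval -0.11 to 0.39). The printed promoters of all 3 genes hold the response element core.

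Of 3 tested members of the ISG15 system 2 rose (Usp18 and Herc6), against 23.6% of all genes tested. Usp18 was tested only through its Irf4-/- signal and had to differ. Of the 2 with an Irf4+/+ mean over the filter 1 rose (Herc6). The probe set shared by Isg15 and its pseudogene Gm9706 had 165.8, 185.3, 203.9, 165.4 and 213.7 in Irf4-/- samples, against 53.3, 66.9, 84.7, 87.0 and 79.5 in Irf4+/+ samples. The arrays did not overlap (2.39-fold, adjusted p = 1.59e-06 over 26624 probe sets, of which 20.8% were called higher), and the signal cannot be assigned to 1 of the 2 genes. Usp18, which removes ISG15 from proteins and dampens the type I interferon receptor, had 143.4, 154.1, 157.0, 158.7 and 186.7 in Irf4-/- samples, against 8.4, 18.7, 43.8, 21.5 and 33.7 in Irf4+/+ samples (5.44-fold, adjusted p = 4.99e-07). Herc6, the main ISG15 ligase of mice, had 436.4, 462.9, 468.4, 537.6 and 567.6 in Irf4-/- samples, against 90.0, 84.6, 102.0, 115.2 and 95.5 in Irf4+/+ samples. It changed 4.77-fold (adjusted p = 3.10e-11), and its other 3 probe sets rose by 2.43-fold to 3.28-fold.

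Trim25, a ubiquitin and ISG15 ligase that activates RIG-I, was the exception in this group. It had 1168, 1216, 1231, 1277 and 1185 in Irf4-/- samples, against 1362, 1356, 1318, 1318 and 1178 in Irf4+/+ samples. Only Irf4+/+ replicate 5 lay within the Irf4-/- range, and the log2 fold change of -0.10 was not called (adjusted p = 0.15, 95% confidence interval -0.22 to 0.02). Without that array it was called lower (log2 fold change -0.14, adjusted p = 0.0426), with adjusted p from 0.0426 to 0.299 over the alternatives. None of its 3 probe sets was called, and all 3 had negative log2 fold changes.

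**Figure D3:**
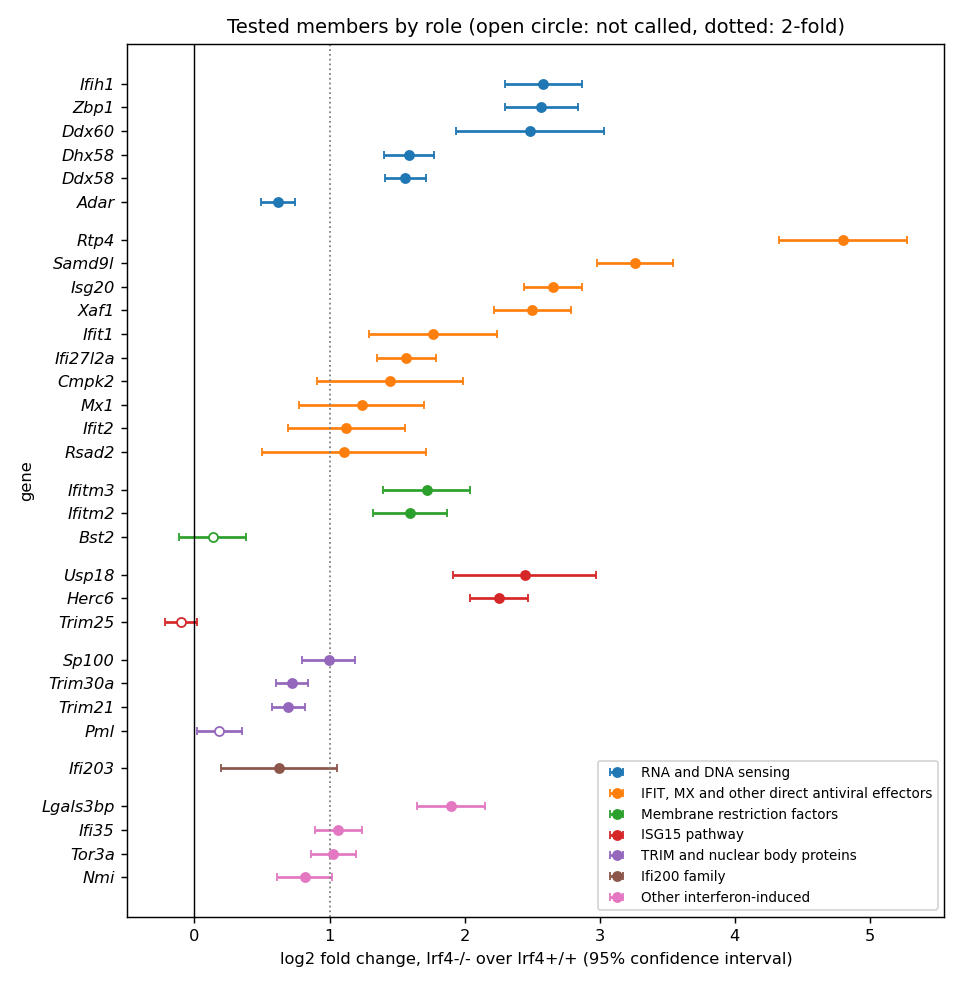
Log2 fold change of each tested member (Irf4-/- over Irf4+/+) with its 95% confidence interval, grouped by role, with open circles for members not called and a dotted line at 2-fold. Rtp4 lies farthest right at 4.80, and Bst2, Trim25 and Pml lie near 0.

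Of 4 TRIM proteins and components of nuclear bodies 3 rose, and none reached 2-fold by its brightest probe set. Trim30a, a mouse TRIM protein that dampens NF-kB signalling, averaged 2279 ± 164 in Irf4-/- and 1378 ± 20.3 in Irf4+/+ samples (1.65-fold, adjusted p = 2.07e-08), and its second probe set rose 2.39-fold. Trim21, a cytosolic antibody receptor, averaged 842.4 ± 42.1 in Irf4-/- and 516.8 ± 11.6 in Irf4+/+ samples (1.62-fold, adjusted p = 4.91e-08). Sp100, a nuclear body protein, averaged 617.0 ± 61.4 in Irf4-/- and 306.6 ± 36.0 in Irf4+/+ samples (1.99-fold, adjusted p = 1.52e-07).

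Pml, the organiser of those bodies, had 1010, 929.4, 1119, 1139 and 1008 in Irf4-/- samples, against 757.6, 916.2, 1001, 970.6 and 937.3 in Irf4+/+ samples. The groups overlapped and the log2 fold change of 0.19 was not called (adjusted p = 0.0672). Pml was the 1 member of 13 with several measurable probe sets whose probe sets differed in sign. Its second probe set rose 1.48-fold (adjusted p = 1.36e-05 over all probe sets), and its dimmest differed by -0.22 on the log2 scale (adjusted p = 0.247). Without Irf4-/- replicate 2 or Irf4+/+ replicate 3 the brightest probe set was called higher (adjusted p = 0.0369 and 0.0428).

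**Figure D4:**
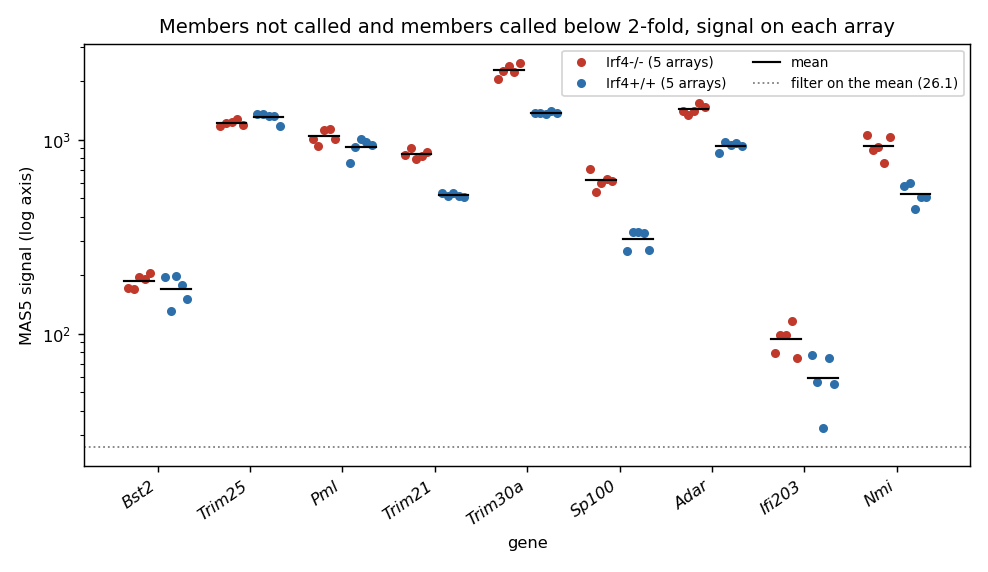
MAS5 signal (log axis) on each array for the members not called (Bst2, Trim25, Pml) and 6 members that rose by less than 2-fold, with Irf4-/- arrays in red left of Irf4+/+ arrays in blue and bars at the mean. Bst2, Trim25, Pml and Ifi203 overlap between genotypes, and the other 5 genes do not.

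The Ifi200 family, DNA-binding proteins encoded side by side on chromosome 1, was measured mostly by probe sets that several relatives share. The probe set of Ifi203 alone ranged from 74.9 to 115.7 in Irf4-/- and from 32.4 to 77.4 in Irf4+/+ samples, with overlap between genotypes (1.55-fold, adjusted p = 0.0167). The 3 probe sets annotated to Ifi203 together with a pseudogene and other loci rose by 5.43-fold, 6.71-fold and 8.06-fold. The one with the 5.43-fold rise had an Irf4+/+ mean of 24.0, under the filter. It passed only through its Irf4-/- signal and had to differ. The brightest of the 3 averaged 3788 ± 139 in Irf4-/- and 464.5 ± 44.7 in Irf4+/+ samples (adjusted p = 1.26e-14 over all probe sets). A probe set shared by Mndal, Ifi211, Ifi205 and Ifi204 averaged 1287 ± 143 in Irf4-/- and 298.5 ± 5.38 in Irf4+/+ samples (4.21-fold, adjusted p = 2.43e-12 over all probe sets). A probe set shared by Ifi211 and Ifi205 only averaged 144.3 ± 17.9 in Irf4-/- and 166.1 ± 35.8 in Irf4+/+ samples and was not called (adjusted p = 0.322 over all probe sets). Which genes of the family carry the rise cannot be read from shared probe sets, and the probe set of Ifi204 alone was dim (0.9 to 26.3 in Irf4-/- and 0.6 to 13.4 in Irf4+/+ samples).

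All 4 other interferon-induced members rose. Lgals3bp, a secreted glycoprotein, had 422.7, 351.3, 377.3, 384.1 and 402.4 in Irf4-/- samples, against 69.4, 99.4, 105.3, 104.6 and 118.6 in Irf4+/+ samples (3.73-fold, adjusted p = 1.49e-09). Ifi35 and Nmi, proteins that bind each other, changed 2.09-fold and 1.76-fold, with Ifi35 at 4363 ± 443 in Irf4-/- and 2081 ± 238 in Irf4+/+ samples. Tor3a, a torsin ATPase of the endoplasmic reticulum, averaged 687.3 ± 33.0 in Irf4-/- and 334.2 ± 37.5 in Irf4+/+ samples (2.04-fold, adjusted p = 1.80e-08). The 3 probe sets of Tor3a and the 3 of Ifi35 were all called higher.

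Across probe sets the direction rarely differed. Of 53 member probe sets over the filter, 46 were called higher, 0 lower and 7 not called, and 4 of the 7 belonged to Trim25 and Bst2. Over all 26624 probe sets fitted, 20.8% were called higher. Those of Rtp4, Ddx60, Usp18 and Ifit1 passed the filter only through their Irf4-/- signal. Over the 31 members, Irf4-/- replicate 5 was the highest of its genotype for 12 and replicate 2 the lowest for 13, and the median deviation of an array from its genotype mean was between -0.09 and 0.08 on the log2 scale. The median SD of the log2 values of the members was 0.14 in Irf4-/- and 0.25 in Irf4+/+ samples. With each array left out in turn, 28 or 29 members were called higher.

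Members with and without the response element core were set side by side as a description. Of 24 tested members with a promoter in the table, 11 held the response element core, and 10 of these rose, Bst2 being the exception. Of the 13 without it 11 rose, with Trim25 and Pml as the exceptions. Log2 fold changes ranged from 0.14 to 2.58 with the core (median 1.56) and from -0.10 to 3.26 without it (median 1.12). Among those with the core, Ddx60 and Ifit1 were tested only through their Irf4-/- signal. Samd9l, Xaf1 and Herc6 held none of the 3 motifs in this window, and Isg20 held only the STAT element.

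Genes around the members in the interferon pathway were examined as 5 lists with 37 tested genes, of which 26 rose, 2 fell and 9 were not called. Of the 35 with an Irf4+/+ mean over the filter 24 rose. Over all genes tested, 23.6% were called higher and 24.2% lower. Among interferon genes, Ifnb1 and Ifna1 were close to the filter and not called (adjusted p = 0.477 and 0.534), and Ifna2, Ifna4, Ifna5 and Ifna11 were dim. Ifng, the interferon gamma gene, averaged 102 ± 19.1 in Irf4-/- and 11.1 ± 6.30 in Irf4+/+ samples, a 6.02-fold rise (adjusted p = 7.00e-07). Its Irf4+/+ mean lay under the filter, so it was tested only through its Irf4-/- signal. Of 7 receptor chains and JAK kinases 6 rose, by less than 2.1-fold, with Ifngr2 (log2 fold change 1.04), Jak2 (0.55), Ifnar1 (0.52) and Jak1 (0.42) among them.

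All 8 tested STAT and IRF factors rose, with log2 fold changes from 0.21 to 1.89. Irf9, the DNA-binding subunit of the factor that binds response elements, averaged 858.1 ± 92.1 in Irf4-/- and 293.5 ± 33.6 in Irf4+/+ samples (adjusted p = 6.37e-10). Irf1, Irf8 and Irf5 had log2 fold changes of 1.29, 1.11 and 0.81. Sensing adaptors and kinases were mixed: 3 of 10 rose, 2 fell and 5 were not called. These counts are close to the shares over all genes tested (23.6% higher and 24.2% lower). The endosomal receptor chaperone Unc93b1 and the TLR adaptor Ticam1 had log2 fold changes of 0.98 and 1.02, the kinase Ikbke 0.56, and the DNA sensor Mb21d1 (cGAS) -0.65 (adjusted p = 0.000453).

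Of 9 genes for ISG15 conjugation and negative regulation 8 rose, against 23.6% of all genes tested. Of the 8 with an Irf4+/+ mean over the filter 7 rose. Uba7, the ISG15-activating enzyme, averaged 915.6 ± 29.4 in Irf4-/- and 241.4 ± 24.5 in Irf4+/+ samples (log2 fold change 1.89, adjusted p = 5.62e-12). Ube2l6, its conjugating enzyme, was named after its values were seen. It had a log2 fold change of 1.40 and an Irf4+/+ mean under the filter, so it had to differ. The feedback inhibitors Socs1 and Socs3 and the phosphatase Ptpn6 had log2 fold changes of 1.83, 0.72 and 0.60.

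**Figure D5:**
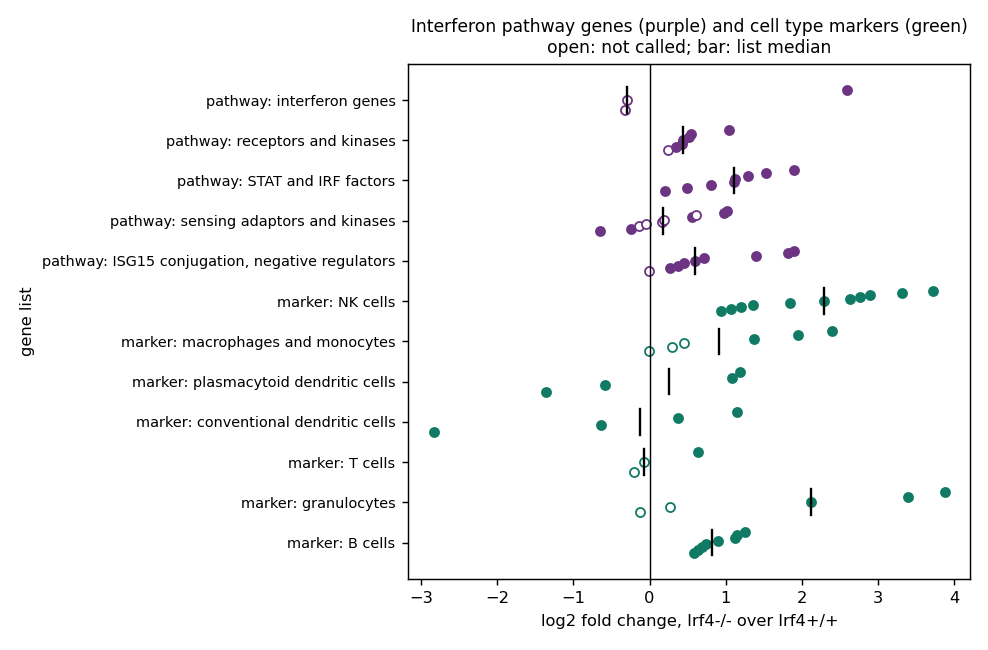
Log2 fold change (Irf4-/- over Irf4+/+) of tested interferon pathway genes (purple) and cell type markers (green) by list, with open circles for genes not called and a bar at each list's median. All 8 STAT and IRF factors and all 11 natural killer markers lie right of 0.

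Markers of other cells differed by cell type. Over all genes tested, 23.6% were called higher and 24.2% lower. All 11 tested natural killer cell markers rose, and their summed signal ranged from 11810 to 16390 in Irf4-/- samples and from 1352 to 1613 in Irf4+/+ samples. For 6 of the 11 (Ncr1, Klrk1, Klrd1, Nkg7, Klra8 and Klre1) the Irf4+/+ mean lay under the filter, so they had to differ, and the other 5 all rose. Gzma and Gzmb, granule proteases, made up most of these sums, and the receptor genes Ncr1 and Klra8 were close to the filter (log2 fold changes 1.2 and 0.94). Of 6 tested macrophage markers 3 rose (Adgre1, Lyz2 and Cd68), with sums of 1226 to 1432 in Irf4-/- and 417.9 to 521.1 in Irf4+/+ samples, while C1qa, C1qb, C1qc, Cd14, Mertk and Marco were dim in both genotypes. Of 5 tested granulocyte markers 3 rose, with sums of 583.7 to 1002 in Irf4-/- and 108.7 to 173.8 in Irf4+/+ samples. S100a8 and S100a9 passed the filter only through their Irf4-/- signal, and of the 3 with an Irf4+/+ mean over it 1 rose (Ngp).

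Plasmacytoid dendritic cells, a main source of type I interferon, had 4 tested markers, of which 2 rose and 2 fell. Their defining markers Siglech and Ccr9 were dim in both genotypes. Of 4 tested markers of conventional dendritic cells 2 rose (Zbtb46 and Itgax) and 2 fell (Flt3 and Batf3), with sums of 659 to 742.8 in Irf4-/- and 947.8 to 1103 in Irf4+/+ samples. Flt3 was the largest part of the Irf4+/+ sums and averaged 53.2 ± 15.6 in Irf4-/- and 417.3 ± 29.7 in Irf4+/+ samples. The T cell genes Cd3e, Cd3d, Cd3g and Cd4 were dim throughout, and of 3 tested T cell markers 1 rose. B cell markers rose in 8 of 8 cases, with a median log2 fold change of 0.82 and sums of 49610 to 56440 in Irf4-/- and 26700 to 30350 in Irf4+/+ samples. The part of these markers in the rise of the members was not tested.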

How the data were processed

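Gene expression was measured in 10 samples of cultured splenic B cells, 5 Irf4-/- and 5 Irf4+/+, grouped by the genotype label. The authors deposited a linear signal intensity for each probe set on each array. The submitters' processing notes name MAS5, with no version or scaling target. Every array had a mean of 250 after removing 2% of values at each end, so no further scaling was applied. The number of arrays limits the precision.

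Of 45101 probe sets, 1 gene symbol was given for 34945 and several for 932, and 9160 were left unnamed. Symbols were updated through gene IDs in RefSeq's GRCm38.p6 table, which held 34741 of them. A pseudocount of 7.9, the 20th percentile of the values, was added before taking log2, so folds of dim genes are understated. Genes whose brightest probe set averaged at most 26.1 were left out, which leaves 12094 of 18193. A linear model with genotype as its term was fitted in limma 3.58.1 (eBayes with trend, R 4.3.3), with Benjamini-Hochberg adjustment over all genes. A second fit covered 26624 probe sets, shared ones included. All adjusted p-values are from these fits, log2 fold changes are Irf4-/- minus Irf4+/+, and intervals are limma's.

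The fit was tested on simulated data for 12094 genes. It recovered 58% of 50 changes of 1.5-fold, 85% of 100 of 2-fold and 96% of 50 of 4-fold, with 11 false calls. The members, lists and tests were chosen with earlier results of these data known. Per-array values are given for the 10 called members of largest change, those not called and those whose probe sets differ in sign. They are also given for Irf4 and for the shared probe set of Isg15. Up to 4 pathway genes a list, taken by smallest p, are given by mean or log2 fold change. The alternatives were pseudocounts, filters, scalings, variance models, the block, probe set choices and each array left out. Promoters were searched on both strands for the 3 motifs.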

Additional observations from a re-analysis of the deposited data

Results flagged for a closer look

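In 4 of the 62 sets of 5 arrays over the 31 tested members, 1 array stood apart from the other four by more than Dixon's 95% limit, where chance gives about 1 in 20. All 4 were Irf4+/+ arrays. Replicate 2 was the highest for Ifit2 (58.8 signal units, gap over range 0.763) and the lowest for Ifi27l2a (gap over range 0.716). Replicate 5 was the lowest for Trim25 (1178, gap over range 0.769), and replicate 1 was the highest for Ifi35 (gap over range 0.822).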

How the results depend on the processing

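The count of members called higher was 28 and lay between 22 and 32 over all alternatives. It was 22 of 25 tested with the stricter filter at the 60th percentile, 23 of 25 without probe sets shared between transcripts, and 32 when probe sets shared between genes were counted, an alternative chosen after seeing the data. With each array left out it was 28 to 29. The median log2 fold change of the members, 1.56, was 1.24 with a pseudocount of 32, 1.34 with no filter, 1.24 with the mean of all probe sets of a gene and 1.28 with the dimmest probe set over the filter. Natural killer markers called higher, 11 in the reported fit, numbered 7 with the stricter filter and 7 without probe sets shared between transcripts, where fewer genes were tested. Pml had a log2 fold change of -0.22 with its dimmest probe set, and was called higher with quantile normalization (adjusted p = 0.0403) and with the replicate block (adjusted p = 0.0411). Dhx58 was not called with its dimmest probe set (log2 fold change 0.44, adjusted p = 0.175). The cause of the changes in the median, in Pml and in Dhx58 was not tested. With the replicate number as a block, 29 members were called higher. Deviations of each array from its genotype mean, gene by gene, correlated at -0.04 to 0.06 between same-numbered samples. By these deviations, none of the 5 Irf4-/- arrays correlated best with the Irf4+/+ array of its own number. Apart from Pml, Dhx58 and Trim25, which was called lower without Irf4+/+ replicate 5 (log2 fold change -0.14), each tested member kept its direction and its side of the threshold in every alternative that tested it.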
